A study of Mus musculus with 15 samples.

Results

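The Notch genes described here are 3 receptors (Notch1, Notch2, Notch3), 4 ligands (Dll1, Dll3, Jag1, Jag2) and 3 target genes (Hes1, Hes5, Hey1), chosen by gene symbol with earlier results of these data known. They are 10 of the 21647 genes in the gene tables. All 10 had a row in the table of sorted cells, which held 21566 genes, and 5 of them (Dll1, Dll3, Jag1, Jag2, Hey1) had one in the time series table, which held 10781 genes. RNA came from ventral midbrain cells of the Pitx3-GFP genotype, whose green fluorescence (GFP) marks cells that use Pitx3, the gene of a transcription factor of midbrain dopamine neurons. The first experiment set cells with GFP (GFP+) beside cells without it (GFP-), both isolated by fluorescence-activated sorting at embryonic day 14 (E14), with 3 libraries each. The second followed GFP+ cells alone at E14, embryonic day 16 (E16) and birth (P0), again with 3 libraries at each age. All groups carried the same reporter, and no other allele or agent was named in the labels. The litters used numbered 3, but the labels do not tie each replicate to its own litter, and p-values therefore cover the spread among these libraries, some of which may be technical.

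Notch receptors are read at contacts between cells. A Delta-like or Jagged ligand on the neighbouring cell binds the receptor, proteases cut it, and its freed intracellular part joins the DNA-binding protein Rbpj to switch on Hes and Hey genes. Those genes encode repressors that hold neural progenitors back from becoming neurons, while cells that leave the progenitor state typically carry the ligands. In the ventral midbrain this exchange takes place between radial glia, which are the progenitors, and the neurons born from them.

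Promoter windows from RefSeq (GRCm38.p6), running from 250 bases before to 50 bases after a start site, were matched by symbol for 8 of the 10 genes (all but Hes1 and Hey1), in 9 windows. Each was searched on both strands for TGGGAA, the core letters bound by Rbpj, which 25.6% of all 32851 windows held. The windows of Hes5 and Jag2 are shown because Hes5 had the largest difference between the sorted fractions and Jag2 was the one member with the opposite direction. The Hes5 window lies at chr4:154960673-154960972 on the plus strand and the Jag2 window at chr12:112929446-112929745 on the minus strand. Both are written 5′ to 3′ in the direction of the gene, with Rbpj core letters in capitals on either strand.
Hes5: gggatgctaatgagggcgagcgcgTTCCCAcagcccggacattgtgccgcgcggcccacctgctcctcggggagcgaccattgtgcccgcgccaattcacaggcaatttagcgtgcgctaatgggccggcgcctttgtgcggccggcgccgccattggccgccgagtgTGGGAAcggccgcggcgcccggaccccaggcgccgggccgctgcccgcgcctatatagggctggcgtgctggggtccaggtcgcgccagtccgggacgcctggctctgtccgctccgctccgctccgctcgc
Jag2: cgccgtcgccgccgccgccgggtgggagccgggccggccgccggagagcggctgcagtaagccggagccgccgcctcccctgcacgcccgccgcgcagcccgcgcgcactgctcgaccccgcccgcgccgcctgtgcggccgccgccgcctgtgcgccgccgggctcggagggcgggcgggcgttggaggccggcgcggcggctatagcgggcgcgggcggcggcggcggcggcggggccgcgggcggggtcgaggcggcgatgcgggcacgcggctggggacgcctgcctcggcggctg
The Hes5 window held the core at positions -226 (on the opposite strand, as TTCCCA) and -82, counted from the start site, and both lay within the longer run GTGGGAA, which 6.38% of all windows held. None of the windows of Notch1, Notch2, Notch3, Dll1, Dll3, Jag1 and Jag2 held the core. CACGTG, an E box that Hes and Hey repressors bind, was in 7.15% of all windows and in none of the 9. CACNAG, the N box, was in 42.5% of all windows and in those of Notch1, Notch2 and Notch3 and in a window of Dll1. These letters are described as sequence; binding was not measured.

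Depth over genes was 17369191 to 22374153 reads per sorted library and 17910017 to 33386535 per time series library, the latter a sum over the 10781 genes of that table and estimated from the spacing of its values. Sequenced reads carried no molecular identifiers, and these numbers bear on counting error only. Values below are normalized reads, each library divided by 1 scaling factor by the authors. Dopamine neuron markers were higher in GFP+ cells for 9 of 9 genes, with summed levels of 84200 to 95887 normalized reads against 4015 to 5152, so the label "dopamine neurons", which the GFP- libraries also carry, was not matched by their markers. GFP- cells were the fraction with more radial glia RNA: 11 of 14 markers were lower in GFP+ cells and 2 were higher, Lmx1a and Foxa2, which dopamine neurons also use. The summed radial glia level was 83179 to 95881 normalized reads in GFP- and 20160 to 21165 in GFP+ cells. Most of the GFP+ sum was Lmx1a (mean 8620 normalized reads) and Foxa2 (3756), which stood at 1960 and 1023 in GFP- cells. All 10 of 10 genes of dividing cells were lower in GFP+ cells. Nr2e1 was the one radial glia marker at 0 in any library, in GFP+ libraries 1 and 2, and no library stood apart from its group in these sums. Fewer cells of a type and less RNA per cell cannot be told apart in such bulk samples.

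GFP+ cells at E14 held little RNA of the receptors and of the Hes genes, kept part of the ligand Dll1, and held more of the ligand Jag2 than GFP- cells did. Of the 10 genes, 8 were lower in GFP+ cells, 1 was higher and 1 was not called, in a comparison in which 30.7% of 18260 tested genes were called, 18% lower and 12.7% higher, at an adjusted p under 0.05 (limma on log2 of normalized reads plus 1, Benjamini-Hochberg over all tested genes). With quantile normalization the whole comparison split into 3244 higher and 2992 lower genes, against 2313 and 3286 under the authors' scaling. The median log2 change of the 10 genes was -2.42, against 0.02 for all tested genes. Libraries of the 2 fractions did not overlap for 9 of the 10 genes and for 44.1% of all tested genes.

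**Figure D1:**
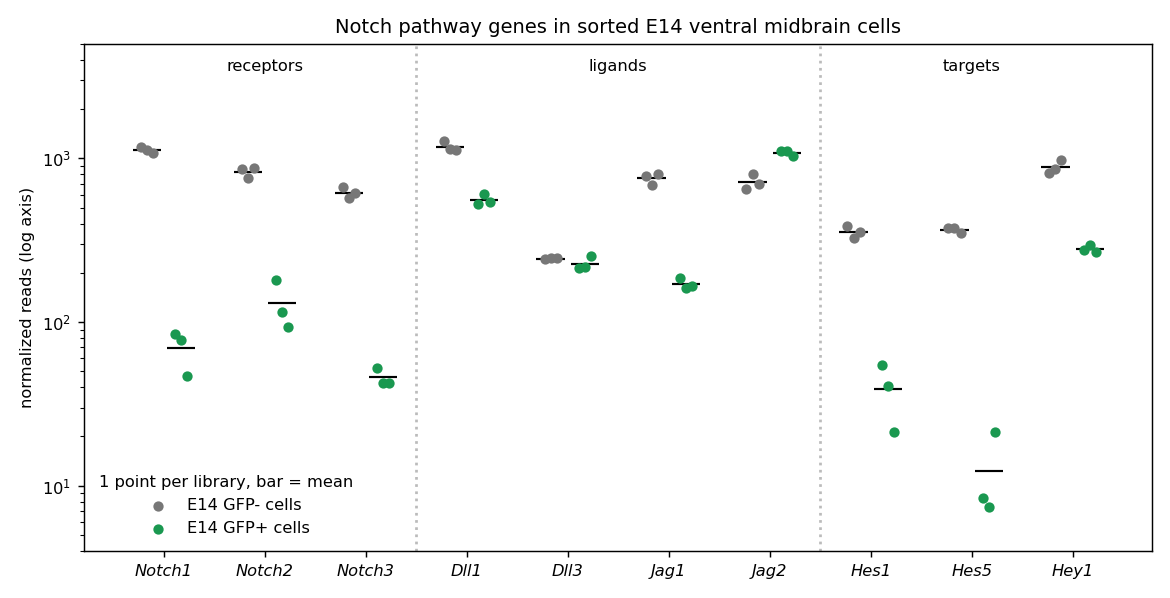
Normalized reads of the 10 Notch genes on a log axis in E14 GFP- (grey) and GFP+ (green) libraries, 1 point per library with a bar at the mean of 3. The receptors and Hes genes sit far lower in GFP+ cells, Jag2 sits higher, and the points of Dll3 overlap.

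All 3 receptors were lower in GFP+ cells. Notch1 (chromosome 2, 26457903 to 26516663, minus strand), a main receptor of neural progenitors, stood at 1174, 1119 and 1086 normalized reads in the GFP- libraries and at 85.0, 77.7 and 46.8 in the GFP+ libraries. Its highest GFP+ value was far below its lowest GFP- value. The GFP+ mean was 6.20% of the GFP- mean (69.8 ± 20.3 against 1127 ± 44.6, SD, n = 3 each), a log2 change of -4.04 (SE 0.19, limma adjusted p = 3.38e-08). Notch3 (chromosome 17, 32120820 to 32166852, minus strand) is a receptor of radial glia and of the mural cells of vessels. It stood at 664, 575 and 617 normalized reads in GFP- and at 52.7, 42.6 and 42.5 in GFP+ libraries. The fractions were apart here too, with the GFP+ mean at 7.42% of the GFP- mean and a log2 change of -3.73 (SE 0.14, limma adjusted p = 7.76e-09). Notch2 (chromosome 3, 98013527 to 98150361, plus strand), a receptor also used by glia, stood at 859, 754 and 873 normalized reads in GFP- and at 182, 116 and 93.6 in GFP+ libraries. It kept the largest share of the 3 receptors, 15.7% of the GFP- mean, and changed by -2.71 on the log2 scale (SE 0.20, limma adjusted p = 1.13e-06).

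Markers of vessel cells moved in the same direction as the receptors. Of 7 pericyte and smooth muscle markers, 6 were lower in GFP+ cells, with summed levels of 1161 to 1295 normalized reads in GFP- and 207 to 346 in GFP+ cells. Of 8 endothelial markers, 6 were lower, with sums of 665 to 753 against 506 to 531, and none of these markers was at 0 in every library. All 6 microglia and all 5 erythroid markers were lower as well, as were 4 of 6 oligodendrocyte lineage and 3 of 5 astrocyte markers. Of 7 pan-neuronal genes, 4 were higher in GFP+ cells and 1 was lower. The median GFP+ level of the radial glia markers was 7.66% of the GFP- level (range 1.88% to 440%), that of the genes of dividing cells 9.38%, that of the pericyte markers 26.8% and that of the endothelial markers 46.2%. The part of each cell type in the receptor values was not tested. Notch1 shares exon bases with 0610009E02Rik and Gm13568, Notch3 with Gm17276 and Dll1 with A930024N18Rik, each on the opposite strand, and Notch2 with Gm42820 on its own strand. Whether counting used strand was not stated in the labels or file headers, and reads of such pairs cannot be told apart.

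The ligands did not move together: 2 were lower, 1 was higher and 1 was not called. Jag1 (chromosome 2, 137081456 to 137116644, minus strand), a Jagged ligand of progenitor domains, had the largest difference among them. Its values were 780, 687 and 804 normalized reads in GFP- and 187, 161 and 166 in GFP+ libraries. The fractions were well apart, with a GFP+ mean at 22.6% of the GFP- mean and a log2 change of -2.14 (SE 0.11, limma adjusted p = 7.11e-08). Dll1 (chromosome 17, 15367354 to 15376872, minus strand), a Delta-like ligand of newly committed neurons, stood at 1270, 1149 and 1122 normalized reads in GFP- and at 529, 607 and 541 in GFP+ libraries. It was lower in every GFP+ library but kept 47.4% of the GFP- mean, a log2 change of -1.08 (SE 0.09, limma adjusted p = 3.96e-06).

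Jag2 (chromosome 12, 112907819 to 112929776, minus strand), the other Jagged ligand, was the single member with more RNA in GFP+ cells. Its GFP- libraries stood at 650, 809 and 701 normalized reads and its GFP+ libraries at 1104, 1109 and 1040. Every GFP+ library was above every GFP- library. The GFP+ mean was 151% of the GFP- mean, a log2 change of 0.60 (SE 0.10, limma adjusted p = 0.000626). Dll3 (chromosome 7, 28293553 to 28302238, minus strand) is a divergent Delta-like protein that does not activate receptors on neighbouring cells. It stood at 243, 245 and 245 normalized reads in GFP- and at 213, 216 and 253 in GFP+ libraries. These ranges overlapped, and its log2 change of -0.11 (95% interval -0.37 to 0.16, limma adjusted p = 0.548) was not called and turned to 0.14 with quantile normalization.

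**Figure D2:**
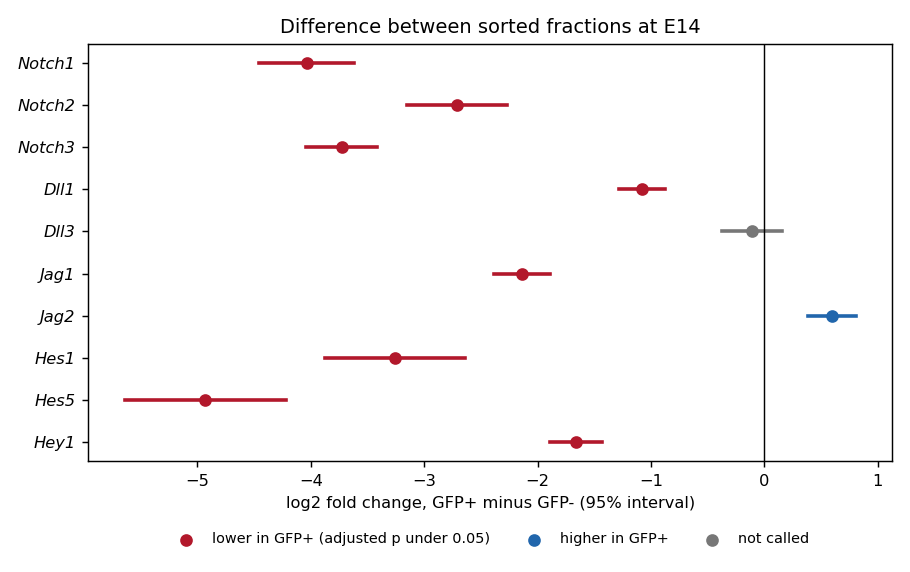
Log2 change of each of the 10 genes, GFP+ minus GFP- at E14, with its 95% interval from limma on 3 libraries per fraction; red is lower, blue higher and grey not called. Hes5 lies at -4.93 and Jag2 at 0.60, and the interval of Dll3 spans 0.

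The 3 target genes were all lower in GFP+ cells, by unequal amounts. Hes5 (chromosome 4, 154960923 to 154962371, plus strand) is a repressor closely tied to Notch signalling in radial glia. Its promoter window held the Rbpj core, while no window of Hes1 or Hey1 was available to search. Hes5 stood at 376, 375 and 349 normalized reads in GFP- and at 8.38, 7.40 and 21.3 in GFP+ libraries. Those GFP+ values rest on 7, 8 and 20 reads. The GFP+ mean was 3.37% of the GFP- mean, a log2 change of -4.93 (SE 0.32, limma adjusted p = 4.37e-07). Hes5 overlaps Gm20421 on the opposite strand over part of its exons. Gm20421 itself had 5.58 normalized reads in GFP- cells and 0.709 in GFP+ cells. These values do not show how reads of the shared bases were assigned, since strand use in counting was not stated.

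Hes1 (chromosome 16, 30064384 to 30067796, plus strand), a repressor that several signals besides Notch control, stood at 389, 328 and 355 normalized reads in GFP- and at 55.0, 40.7 and 21.3 in GFP+ libraries. All GFP+ libraries were far below the GFP- libraries, although they spread widely among themselves. The GFP+ mean was 10.9% of the GFP- mean, a log2 change of -3.26 (SE 0.28, limma adjusted p = 3.94e-06). Hey1 (chromosome 3, 8663359 to 8667256, minus strand), a related repressor, stood at 814, 865 and 982 normalized reads in GFP- and at 275, 295 and 268 in GFP+ libraries. The fractions were apart, but GFP+ cells kept 31.5% of the GFP- mean, with a log2 change of -1.66 (SE 0.10, limma adjusted p = 2.82e-07).

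Levels of different genes were compared per kilobase of merged exons, since longer RNAs give more reads. Merged exons join all annotated exons of a gene, 14232 bases for Notch1, and can exceed the length of its main RNA. The order of the genes depends on that length, and no other length was tried. In GFP- cells the highest level per kilobase was that of Dll1 (280 normalized reads per kilobase), followed by Hey1 (272) and Hes5 (269), and neighbours among these 3 overlapped. Hes1 (175), Jag1 (130), Jag2 (103) and Dll3 (85.7) came next, each apart from its neighbour. The 3 receptors came last at 79.2, 76.9 and 76.5 normalized reads per kilobase and overlapped one another in turn. In GFP+ cells the order per kilobase opened with ligands: Jag2 at 156 normalized reads and Dll1 at 133. Hey1 (85.6) and Dll3 (79.8) followed and overlapped, and Jag1 was at 29.4. Hes1 (19.1), Notch2 (12.1), Hes5 (9.06), Notch3 (5.68) and Notch1 (4.91) closed the order, and each of these overlapped its neighbour. Jag2 thus stood sixth of 10 in GFP- cells and first in GFP+ cells, and Notch1 stood eighth and last.

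The genes closest to Notch1 over the 6 sorted libraries were Metrn, Afap1l2 and Pbxip1. Their log2 profiles, each centred on its own mean, differed from that of Notch1 by a root mean square of 0.11, 0.14 and 0.14. For Hes5 they were Ube2c, Dbx2 and P2rx7, at 0.29, 0.30 and 0.33.

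Of 74 other genes of the pathway, 71 were tested in the sorted cells. GFP+ cells had more RNA of 12 and less of 22, with a median log2 change of -0.10. Of all tested genes, 30.7% were called, 12.7% higher and 18% lower, and the list counts below stand beside those shares. Of 11 tested members of the Hes/Hey family and other Notch targets, 9 were lower and none was higher, with a median of -2.15. Hey2, a Hey family repressor, had a log2 change of -3.30, and Id1 and Id4, which block proneural factors by binding their partners, had -3.21 and -3.06. Among proneural factors, which drive neuron formation and switch on Delta-like ligands, 3 of 4 tested genes were lower. Neurod1 fell from 329 to 123 normalized reads, a log2 change of -1.42. Neurod4 was below the level set for naming genes and is added after its values were seen, at 71.2 against 2.65 normalized reads. Neurog2, a proneural factor of dopamine progenitors, stood at 647 ± 138 and 573 ± 75.3 normalized reads and was not called.

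**Figure D3:**
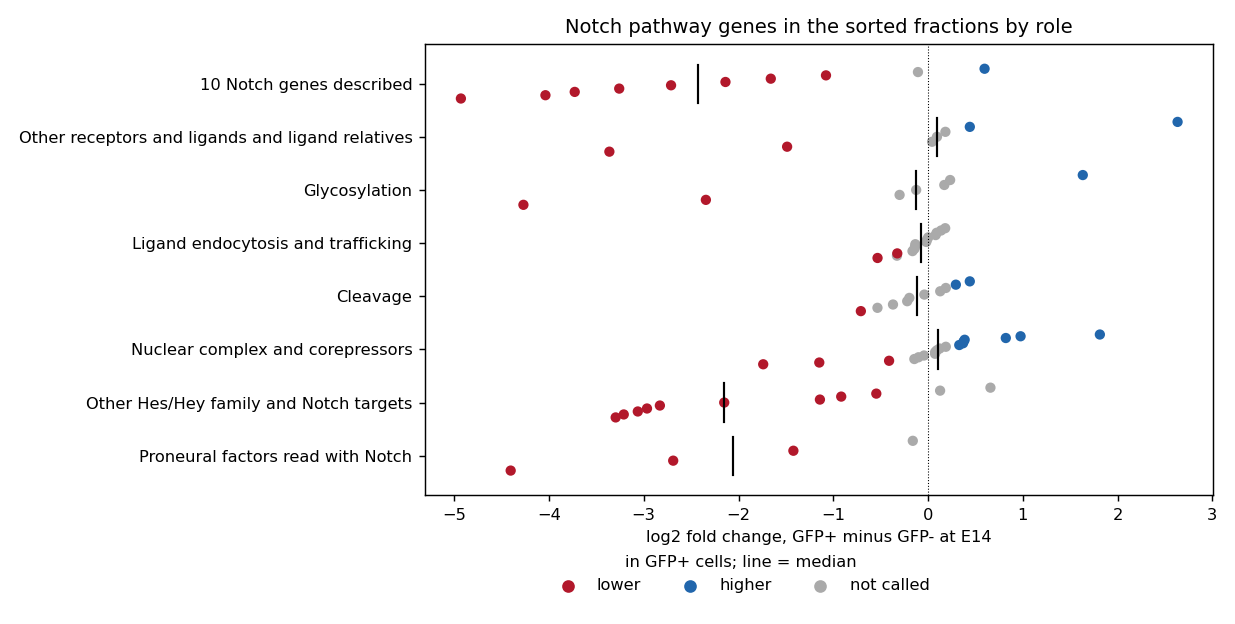
Log2 change, GFP+ minus GFP- at E14, of the 10 Notch genes and 71 other tested pathway genes by role, 1 point per gene with a line at the median of each list; red is lower, blue higher and grey not called. The list of other Hes/Hey genes and targets has a median of -2.15, while the lists for endocytosis, cleavage and the nuclear complex centre near 0.

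The sugar-transferring enzymes of the Fringe family, which tune a receptor's choice of ligand, were not alike. Lfng stood at 736, 659 and 623 normalized reads in GFP- and at 45.5, 25.0 and 34.0 in GFP+ libraries. The fractions were far apart, with a log2 change of -4.27 (SE 0.20, limma adjusted p = 3.09e-08). Mfng changed by -2.34, while Rfng, the other Fringe gene, stood at 299 against 351 normalized reads and was not called. Of 7 glycosylation genes, 2 were lower and 1 was higher, Gxylt2, a xylosyltransferase named after its values were seen, at 14.7 against 46.5 normalized reads.

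Among other receptors, ligands and their relatives, 2 of 7 were higher and 2 lower. Dlk1, a Delta-like protein without the domain that activates receptors, stood at 420, 418 and 422 normalized reads in GFP- and at 2467, 2406 and 2988 in GFP+ libraries. All GFP+ libraries were several times higher, with a log2 change of 2.63 (SE 0.10, limma adjusted p = 4.81e-09). Dner, a neuronal transmembrane protein described as a Notch ligand, changed by 0.44, and Cntn6, a contactin with the same description, by -1.49. Dll4, the Delta-like ligand of vessel endothelium, named here after its values were seen, was at 37.0 against 3.23 normalized reads. Notch4, an endothelial receptor, stood at 93.9 and 99.9 normalized reads and was not called.

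The changes called among genes of ligand endocytosis and of receptor cleavage were all under 1 log2 unit. Of 14 genes of ligand endocytosis and trafficking, 2 were lower (Neurl1b at -0.53 and Dtx4 at -0.33 on the log2 scale) and none was higher; both calls were lost without GFP- library 2 (adjusted p = 0.118 and 0.0746) and without GFP- library 3 (0.0819 and 0.0792), and that of Neurl1b also without GFP+ library 1 (0.0662) and with quantile normalization (0.177). Mib1, the ubiquitin ligase that lets ligands signal, stood at 7192 ± 492 and 6505 ± 396 normalized reads and was not called. Of 10 cleavage genes, 2 were higher and 1 was lower. In neither list was the share called above the 30.7% of all tested genes. Adam17, a protease of the first cut, changed by -0.71, and Aph1b, a subunit of the gamma-secretase that makes the second cut, by 0.44. The number called higher was 1 with TMM rescaling, with edgeR on recovered reads and without each of 4 libraries in turn, GFP- 1 and 3 and GFP+ 2 and 3.

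The nuclear list had calls in both directions, 7 higher and 3 lower of 18. Among all tested genes 12.7% were called higher and 18% lower. Tle3, a Groucho-family corepressor that Hes proteins recruit, stood at 1190, 1303 and 1148 normalized reads in GFP- and at 3967, 4164 and 4677 in GFP+ libraries. Its relative Tle4 had the opposite pattern, at 2618, 2495 and 2511 against 768, 749 and 762. The log2 changes were 1.81 (SE 0.09, limma adjusted p = 3.80e-08) for Tle3 and -1.74 for Tle4. Tle2 changed by 0.82, and the Mastermind coactivators also split, with Maml3 at 0.98 and Maml2 at -1.15. Hdac1, a histone deacetylase, changed by -0.41, a call lost with quantile normalization (adjusted p = 0.109) and without GFP- library 1 or 3 or GFP+ library 3 (0.0636 to 0.0851). Rbpj, singled out after its values were seen because it is the factor that receives the signal, stood at 1850, 1550 and 1680 normalized reads in GFP- and at 2324, 2115 and 2186 in GFP+ libraries. It was higher in each GFP+ library, by 0.39 on the log2 scale (SE 0.09, limma adjusted p = 0.00528). GFP+ cells held more RNA of Rbpj while the receptors and Hes genes were at a small share of the GFP- level.

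The time series followed GFP+ cells to birth, with all 9 libraries in 1 fit. The table holds no gene with a mean under 107 normalized reads, and Notch1, Notch2, Notch3, Hes1 and Hes5 were not analysed here over time. In the sorted GFP+ libraries those 5 genes had means of 12.3 to 130 normalized reads, and the 5 with a row had 171 to 1085. Of the 5 genes with a row, 1 was lower and none higher from E14 to E16, when 33% of 10781 genes were called, 17.8% lower and 15.2% higher; libraries of these ages were apart for 2 of the 5 and for 46.4% of all genes. From E16 to P0, 1 was higher and none lower, with 33.4% called, 16.8% higher and 16.6% lower; libraries were apart for 1 of the 5 and for 44.8% of all genes. Over the whole span 1 was lower and none higher, with 55.7% called, 30.6% lower and 25.1% higher; libraries were apart for 2 of the 5 and for 65.2% of all genes. The comparisons share libraries, so their values are set side by side.

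**Figure D4:**
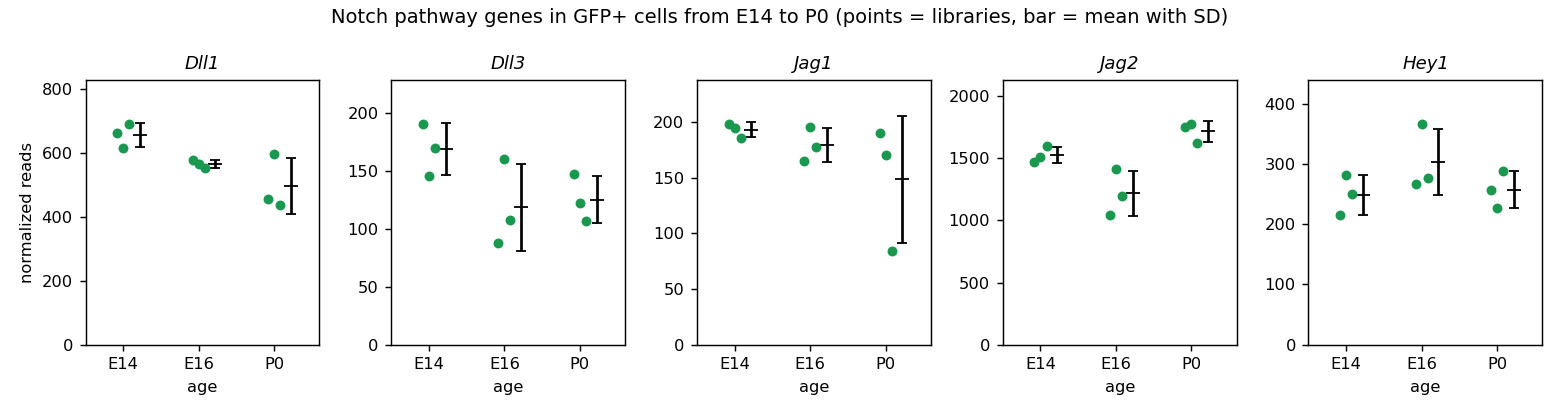
Normalized reads of the 5 Notch genes with a row in the time series, in GFP+ cells at E14, E16 and P0, 1 point per library with the mean and SD of 3; each panel has its own axis from 0. Jag2 is lowest at E16 and highest at P0, and Dll1 is lower at P0 than at E14.

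Jag2 dipped at E16 and was high at birth. It stood at 1466, 1505 and 1594 normalized reads at E14, at 1045, 1408 and 1194 at E16, and at 1749, 1773 and 1620 at P0. The E16 libraries were below all others, and the P0 libraries were above all others. From E14 to E16 it changed by -0.33 (SE 0.10, limma adjusted p = 0.0188), a call lost without E14 library 2 or 3 or E16 library 1 or 3 (adjusted p = 0.0504 to 0.0780). From E16 to P0 it changed by 0.50 (SE 0.10, limma adjusted p = 0.00190), a call kept in all 14 alternative settings. Between E14 and P0 the change of 0.17 (95% interval -0.04 to 0.38, limma adjusted p = 0.157) was not called, although the libraries were apart.

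Dll1 was lower at birth than at E14. It stood at 662, 614 and 691 normalized reads at E14, at 578, 565 and 554 at E16, and at 455, 597 and 437 at P0. The E14 libraries were above all later ones, and P0 library 2 was higher than any E16 library. The change from E14 to P0 was -0.41 (SE 0.12, limma adjusted p = 0.00777), kept in all 14 alternative settings. Its steps of -0.21 to E16 and -0.20 from there to P0 were not called on their own (limma adjusted p = 0.183 and 0.197), and the second was called without P0 library 2 (adjusted p = 0.0355).

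The other 3 genes were not called at any step. Dll3 stood at 190, 146 and 169 normalized reads at E14, at 87.5, 160 and 108 at E16, and at 147, 122 and 106 at P0. Its ages overlapped, with a change of -0.54 to E16 (SE 0.21, limma adjusted p = 0.0638). That change was -0.35 without E16 library 1 (adjusted p = 0.230), and it was called at -0.78 without E16 library 2 (0.00763) and with quantile normalization (0.0265). Jag1 stood at 198, 195 and 185 normalized reads at E14, at 164, 195 and 178 at E16, and at 190, 171 and 84.0 at P0. P0 library 3 was the low one, and the change from E14 to P0 of -0.46 (95% interval -0.96 to 0.04, limma adjusted p = 0.111) was not called; it was -0.10 without P0 library 3 (adjusted p = 0.613) and was called at -0.68 without P0 library 1 (adjusted p = 0.0268). In that same P0 library 3 Fabp7, 1 of 6 radial glia markers with a row, was at 3293 normalized reads against 1438 and 1081 in the other P0 libraries. Fabp7 does not stand for that list, since it alone was higher at P0 than at E14 while 5 were lower. The levels of those 5 in P0 library 3 are not given here. The part of radial glia in the Jag1 value was not tested. Hey1 stood at 215, 281 and 250 normalized reads at E14, at 267, 366 and 276 at E16, and at 256, 226 and 288 at P0. Its ages overlapped, and its change from E14 to P0 was 0.05 (95% interval -0.28 to 0.38, limma adjusted p = 0.806), turning to -0.02 with quantile normalization.

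The order per kilobase was Jag2, Dll1, Hey1, Dll3, Jag1 at each age, the order that these 5 also had in the sorted GFP+ cells. Jag2 stood at 218, 175 and 246 normalized reads per kilobase from E14 to P0 and Jag1 at 33.1, 30.8 and 25.4. Neighbours overlapped only for Hey1 and Dll3 at E14 and for Dll3 and Jag1 at E16. The gene with the profile closest to that of Jag2 over the 9 libraries was Slc9a8 (root mean square difference 0.05 on the log2 scale), then Nek9 and Rrnad1. For Dll1 they were Senp7, Zfp563 and Suz12 (0.06 to 0.07), for Dll3 Cdh24 and Zfp513 among others (0.13 and 0.14), for Jag1 Nfib, Ephb1 and Adgrv1 (0.11 to 0.15), and for Hey1 Abhd8, Aprt and Ctnnbip1 (0.09 each).

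Of the other pathway genes, 52 were tested over time; 9 were higher and 22 lower from E14 to P0, with a median log2 change of -0.22 against -0.05 for all genes, in the comparison that called 55.7% of all genes. Rbpj fell at each step. It stood at 2253, 2328 and 2327 normalized reads at E14, at 1549, 1407 and 1514 at E16, and at 944, 1071 and 891 at P0. No library of one age reached those of another, and its log2 change was -1.25 from E14 to P0 (SE 0.08, limma adjusted p = 3.28e-08), made of -0.63 to E16 and -0.62 after it. In the same nuclear list 8 of 16 tested genes were lower and 1 higher, a share near the 55.7% called among all genes. The 1 higher became 0 with quantile normalization and without E14 library 1 or 2 or P0 library 1 or 2. Tle3 changed by -1.12 and Snw1, a partner of the Rbpj complex, by -0.69 from E14 to P0.

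**Figure D5:**
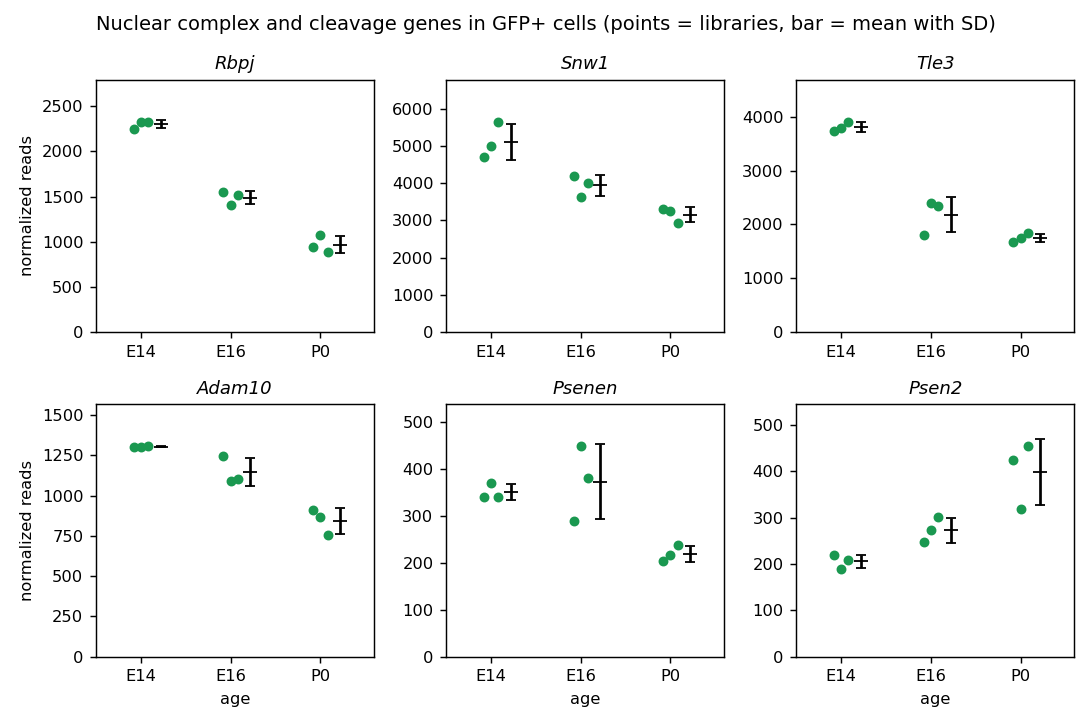
Normalized reads of 3 nuclear genes (Rbpj, Snw1, Tle3) and 3 cleavage genes (Adam10, Psenen, Psen2) in GFP+ cells at E14, E16 and P0, 1 point per library with the mean and SD of 3; each panel has its own axis from 0. Rbpj falls from 2303 to 969 normalized reads, and Psen2 rises from 206 to 399.

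Of 9 cleavage genes with a row, 6 were lower and 1 higher at P0 than at E14. Among all genes 30.6% were called lower and 25.1% higher over that span. Adam10, the protease that makes the first cut after ligand binding, changed by -0.63 from E14 to P0, Adam17 by -0.48 and Psenen, a gamma-secretase subunit, by -0.68. Psen2, a catalytic subunit of that enzyme, went the other way, at 219, 190 and 208 normalized reads at E14 and 424, 318 and 454 at P0 (log2 change 0.94). Of the contactins described as ligands, Cntn1 rose from 4694 ± 530 to 21721 ± 3439 normalized reads (log2 change 2.20) and Cntn6 rose by 1.39 on the log2 scale. Dlk1, high in GFP+ cells at E14, stood at 2080, 2327 and 2073 normalized reads at E14 and at 694, 746 and 866 at P0, and changed by -1.49.

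In the endocytosis list 4 of 14 genes were higher and 3 lower at P0, a share no higher than the 55.7% called among all genes. Higher were Neurl1a (log2 change 1.05) and Neurl1b (0.94), ubiquitin ligases of the Neuralized family, Numbl (0.43), a relative of the Notch inhibitor Numb, and Mib2 (0.31), a relative of Mib1 added after its value was seen. Itch and Nedd4, ubiquitin ligases that act on Notch, changed by -0.46 each and Dtx3 by -0.40. Of the 4 genes with a row in the list of other Hes/Hey genes and targets, Id2 (-1.18), Hes6 (-0.64) and Nepro (-0.48) were lower at P0. None was higher. Pofut1, which adds the fucose that Fringe enzymes extend, changed by 0.37 and Poglut1 by -0.30, the latter not called without E14 library 2 (adjusted p = 0.0528). Mib1 changed by -0.36 to E16 and by 0.33 after it, so that 8060 ± 525 normalized reads at E14 stood beside 7864 ± 178 at P0. Of 6 radial glia markers with a row, 5 were lower at P0 than at E14 and 1, Fabp7, was higher, and their summed level was 16183 to 17539 normalized reads at E14 and 8768 to 10659 at P0. Most of that sum was Lmx1a (means of 8951 and 4687 normalized reads) and Foxa2 (3291 and 1549), which dopamine neurons also use, and the part of radial glia in these values was not tested.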

How the data were processed

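RNA of sorted Pitx3-GFP ventral midbrain cells was depleted of ribosomal RNA and sequenced with ScriptSeq v2 libraries, per the labels' protocols. Trim Galore, TopHat2, DESeq2, GRCm38 and mm10 are named without versions in the submitters' processing notes; for the read counter, its annotation and its strand setting, nothing was stated. The authors deposited normalized reads per gene and per circRNA, here treated as a signal value, with each library divided by 1 factor. Their deposited comparison tables, with a log2 fold change, its standard error and a p-value per gene, served as an alternative only.

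Dividing by the step between values gave whole numbers within 0.1 for 100% of values in each library. In the sorted table these reads served for edgeR 4.0.16 and DESeq2 1.42.0 as alternatives. The lowest time series value was 38 reads, so its step came from spacing and no count model was run there. The two-sided test was limma-trend (R 4.3.3 with limma 3.58.1) for genes with a mean of at least 5 normalized reads, on log2 values with a pseudocount of 1, at a Benjamini-Hochberg adjusted p under 0.05. The sorted libraries, whose columns show the fraction but not which sample, were fitted alone, and the 9 time series libraries together. The tables were normalized separately and no test crosses them.

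Positions and merged exon lengths come from GENCODE M21 on GRCm38, which may differ from the authors' annotation. The members, pathway lists and marker lists were chosen with earlier results of these data known, so they are described by counts beside all tested genes. The lists covered the pathway roles, radial glia, dividing cells, dopamine and other neurons, endothelium, pericytes, microglia, astrocytes, the oligodendrocyte lineage and erythroid cells. Up to 3 called genes per list and direction with a mean of at least 50 normalized reads were named, by size of change. Likeness was the root mean square difference of centred log2 profiles. Alternatives were the pseudocount, the filter, quantile and TMM scaling, a replicate block, leaving out each library, the authors' deposited tables and a longer Rbpj motif. Protein sequences were not analysed here. Some genes that the naming rule selects are not reported here.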

Additional observations from a re-analysis of the deposited data

Results flagged for a closer look

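The time course of Jag2 bent at E16. Its log2 change after E16 exceeded its change before E16 by 0.84 (SE 0.17, limma adjusted p = 0.00720 over all 10781 genes), a contrast chosen after the data were seen. It kept its call in each alternative setting, with values of 0.63 to 1.06 and adjusted p of 0.00126 to 0.0385. Both changes share the 3 E16 libraries, so a low or high value there enters both with opposite sign. The same contrast was 0.65 for Dll3, 0.01 for Dll1, -0.25 for Jag1 and -0.51 for Hey1, none of them called (limma adjusted p = 0.260, 0.985, 0.742 and 0.225). Among all 10781 genes this contrast was called higher for 862 and lower for 606, so a bend at E16 was not particular to Jag2. For Dll3 it was called at 1.13 without E16 library 2 (adjusted p = 0.0464).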

How the results depend on the processing

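All 9 called genes of the sorted comparison kept direction and call under each of 16 alternatives. For Notch1 the log2 change ran from -4.20 to -3.78, for Hes5 from -5.37 to -4.51 and for Jag2 from 0.53 to 0.68. Dll3 turned to 0.14 with quantile normalization. With the replicate block, which used the column number, the sorted comparison called 8466 genes instead of 5599. Same-numbered libraries correlated by 0.367, 0.120 and 0.0976 in their deviations, and GFP- library 3 correlated more with GFP+ library 2 (0.229); in the time series such correlations ran from -0.113 to 0.245. The other unlike-numbered pairs of the sorted libraries ran from -0.297 to 0.0473, so whether the numbers mark pairs was left unresolved. They were not used as pairs in the main test, and the block changed no call among the 10 genes. It called 5 endocytosis genes lower and 1 higher (2 and 0 without it), 3 cleavage genes lower (1 without it) and 2 glycosylation genes higher (1 without it).

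Over time, quantile normalization called 2 genes lower from E14 to E16 instead of 1, and leaving out 1 library gave 0 to 2. Leaving out 1 library gave 0 to 1 lower from E16 to P0 (0 with all) and 1 to 2 from E14 to P0 (1 with all). Signs turned for some changes that were not called. From E16 to P0, leaving out 1 library gave -0.081 to 0.35 for Dll3 (negative without E16 replicate 1 or P0 replicate 1) and -0.57 to 0.011 for Jag1 (-0.35 with all libraries, positive without P0 replicate 3). From E14 to P0, Hey1 was -0.023 with quantile normalization and -0.051 to 0.14 with 1 library left out (negative without E14 replicate 1 or P0 replicate 3). The contrast around E16 was -0.010 for Dll1 with quantile normalization and -0.015 with TMM rescaling. With 1 library left out it was -0.13 to 0.092 for Dll1 and -0.47 to 0.12 for Jag1, positive there without P0 replicate 3. The causes were not tested. The longer Rbpj motif left the same window count of 1. Of the other pathway genes lower from E14 to E16, 21 with all libraries became 12 without E14 library 2 and 13 without E14 library 3. Depth limits the lowest values most: Hes5 in GFP+ cells rests on 7 to 20 reads.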

Other observations

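Only the circRNAs of the time series were searched for names of the members, and those of the sorted GFP+ and GFP- cells were not. A circRNA named after Notch2 was listed in the time series circRNA table of 7528 circRNAs. It was above 0 in 1 of 9 libraries, at 1.83 normalized reads in E14 library 3, and listed at 0 in the others.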
